A study of Capra hircus with 6 samples.

Results

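CCNE1 (ENSCHIG00000024742) encodes cyclin E1, the cyclin that activates the kinase CDK2 when a cell passes from G1 into S phase. It was chosen by its own FPKM values in the libraries described here, as one of the steepest decreases after YBX1 knockdown among genes with a symbol, and for its role in S-phase entry in cleavage embryos. It is 1 of the 5154 genes of the deposited expression table. RNA was sequenced from goat 8-cell embryos fertilized in vitro, 72 h after zygotes had been microinjected with siRNA, a short RNA that guides the destruction of a matching mRNA. In the YBX1 knockdown embryos the siRNA was directed against YBX1 and was used at 20 µM, and in the controls it was a universal negative control siRNA. Each group had 3 libraries, each made from pooled whole embryos, and the comparison asks how gene expression at the 8-cell stage differs when YBX1 is depleted. The labels do not say that the libraries came from separate cultures, so p-values measure only the spread between these libraries, which may be technical. YBX1 itself was not analysed here, and the study's own measurements of it were not used here, so the labels were not checked by the targeted gene.

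Cyclin E bound to CDK2 phosphorylates the retinoblastoma protein and thereby releases E2F transcription factors, and it acts at replication origins and on NPAT, which turns on histone genes. Its level is set by transcription and by ubiquitin-dependent degradation, and CDK inhibitors such as p27 restrain the active complex. Cleavage embryos first divide on stored maternal products, and take over with their own transcripts when the zygotic genome is activated.

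Expression was given as FPKM, the fragments of a gene scaled to its length and to the total of the library. The fragments behind every value could be recovered as whole numbers, within 0.001 of a fragment, in all 5154 genes. The libraries held 10354990, 12192458 and 11052666 fragments in controls 1, 2 and 3. They held 12098896, 11203666 and 12688297 fragments in knockdown libraries 1, 2 and 3.

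CCNE1 stood at 202, 275 and 126 FPKM in controls 1, 2 and 3. It stood at 3.46, 19.98 and 10.98 FPKM in knockdown libraries 1, 2 and 3. Every control lay above every knockdown library, as did the controls in 57.8% of the 4500 genes of the table that were tested, and nothing is read from this because the same values chose the gene. Control 2 was the highest control and control 3 the lowest, while knockdown library 2 was the highest of its group and knockdown library 1 the lowest. The mean was 201 ± 74.5 FPKM (SD, n = 3) in the controls and 11.5 ± 8.27 FPKM (SD, n = 3) after knockdown, a ratio of means of 17.5. The lowest control was still 6.30 times the highest knockdown library. The highest control was 2.18 times the lowest control, and among the knockdown libraries the same ratio was 5.78. On the log2(FPKM + 1) scale, the means were 7.59 ± 0.56 and 3.38 ± 1.13 (SD, n = 3 each), and CCNE1 was lower by a log2 difference of -4.21 after knockdown. No test is given for this difference. In bulk embryo samples, fewer cells of a type and less RNA per cell cannot be told apart.

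The CCNE1 values rested on 7544, 12096 and 5022 fragments in the controls and on 151, 808 and 503 fragments in knockdown libraries 1, 2 and 3. CCNE1 was therefore counted far above the floor in every library, since 3 fragments, taken as the detection floor, correspond to between 0.0655 and 0.0803 FPKM for this gene. Exact Clopper-Pearson 95% intervals ran from 122 to 129 FPKM in control 3 and from 18.6 to 21.4 FPKM in knockdown library 2, the libraries of the 2 groups that lay closest to each other. For knockdown library 1 the interval ran from 2.93 to 4.05 FPKM. Intervals and floors cover counting error only, because PCR copies without molecular identifiers are not independent molecules. The intervals of the 3 controls did not overlap one another, and neither did those of the 3 knockdown libraries.

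Among the genes of the table, CCNE1 ranked 461st, 386th and 619th from the top by FPKM in controls 1, 2 and 3. It ranked 2806th, 1526th and 2081st in knockdown libraries 1, 2 and 3. CCNE1 thus moved from the upper part of the table, above 88.0% to 92.5% of its genes, to the middle, above 45.6% to 70.4% of them. Within the 32 genes of the table that were on 9 lists of cell cycle genes, CCNE1 was at place 7, 5 and 9 by FPKM in the controls. It was at place 32, 21 and 25 in knockdown libraries 1, 2 and 3. In knockdown library 1 its counting interval, 2.93 to 4.05 FPKM, also held the values of RIF1 (3.50 FPKM) and SLX4 (3.85 FPKM). Its intervals in knockdown libraries 2 and 3 held RAD51AP1 (19.0 FPKM) and NCAPD3 (10.7 FPKM), so none of these 3 places is separated from those of the genes named, which were chosen after their values were seen.

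The size of the CCNE1 difference changed with the libraries used and with the scaling between them. It lay between -4.72, without knockdown library 2, and -3.60, without knockdown library 1. With median of ratios scaling, in which a library's factor is the median ratio of its genes to their geometric means, it was -3.26. The median log2 fold change of the 4500 genes tested was -1.24, so that CCNE1 stood at -2.97 relative to the median gene as deposited and at -2.82 after that scaling. The table holds only genes that the authors had called, most of them lower, so that its median is not that of all genes.

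In the table, 90 genes had a larger log2 decrease than CCNE1. Among genes with a symbol and no overlap between the groups, CCNE1 was at place 4. Just ahead of it were EIF1AD at -4.51, DUSP11, an RNA phosphatase, at -4.38 and RPS3A, a protein of the small ribosomal subunit, at -4.36, all as log2 differences. Just behind it were OSGEPL1, a mitochondrial tRNA-modifying enzyme, at -4.19 and PTBP3, an RNA-binding splicing regulator, at -4.16. The log2 differences of these 6 genes differed from one another by less than the SD of CCNE1 between libraries of either group, so these data do not fix its exact place. Only 456 genes of the table (8.85%) were paired with a symbol, so these places are among named genes only.

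The genes whose profile over the 6 libraries was most like that of CCNE1 were found by the Euclidean distance between log2(FPKM + 1) values, each gene centred on its own mean. The 5 nearest of 455 genes with a symbol were LARP4, DUSP11, OSGEPL1, EIF1AD and ZCCHC10, at distances of 0.888, 0.913, 0.952, 1.04 and 1.41, against a median distance of 4.31 over the table. LARP4, a protein that binds poly(A) tails of mRNA, had 243, 388 and 151 FPKM in controls 1, 2 and 3 and 9.67, 33.1 and 22.2 FPKM in knockdown libraries 1, 2 and 3. Its libraries followed the same order as those of CCNE1, with control 2 highest and knockdown library 1 lowest. DUSP11 had 239, 337 and 196 FPKM in the controls and 7.14, 16.1 and 11.7 FPKM after knockdown. ZCCHC10 had 264, 510.2 and 440.3 FPKM in the controls and 10.1, 79.5 and 43.5 FPKM after knockdown, so that control 1 and not control 3 was its lowest control. Another 14 genes, which had no paired symbol, were nearer to CCNE1 than LARP4. The nearest cell cycle gene was HDAC2, at place 39 with a distance of 2.38. With 1 minus Pearson's correlation as the distance, only LARP4 remained among the 5 nearest, and with a pseudocount of 0.1 all but ZCCHC10 did. The likeness is a description of 6 libraries that fall into 2 groups, in genes selected for differing between those groups.

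The question was then how the other cell cycle genes compared with CCNE1. The lists held 285 genes, from partners of cyclin E to chromosome segregation, of which only 83 could be paired with a symbol. Symbols were known only for genes with splicing events that the study lists as differential between the same groups. Besides CCNE1, 31 genes of the lists were in the table with a symbol, and all of these passed the minimum mean of 1 FPKM. With limma on log2(FPKM + 1), 18 of the 31 genes were lower after YBX1 knockdown, with an adjusted p below 0.05 by the Benjamini-Hochberg method and a log2 fold change below -1, where 56.2% of the 4500 genes tested were called lower. A further 7 of the 31 were higher, where 34.1% of all genes tested were called higher, and 6 did not pass. The knockdown libraries all lay below the controls in 20 of the 31 and all above them in 6, against 57.8% and 33.8% of the genes tested. The median log2 fold change was -1.18 over the 31 genes and -1.24 over all genes tested. No test of the list was made. The counts for single lists below stand beside the same shares of all genes tested, 56.2% lower and 34.1% higher. The table holds only genes called on the same libraries, so that separation of the groups was built into it. The adjusted p-values given below are therefore no independent evidence of a change. Since the authors had called all 5154 genes, a gene that did not pass failed only in the limma fit made here.

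The cyclin E-CDK2 module was represented by CCNE2, CCNA2 and CKS1B besides CCNE1, of which 2 fell and 1 rose. CCNE2, the other E-type cyclin, had 40.6, 39.5 and 26.9 FPKM in controls 1, 2 and 3 and 9.10, 9.76 and 16.1 FPKM in knockdown libraries 1, 2 and 3. As with CCNE1, control 3 was the lowest control and the groups did not overlap, but the highest knockdown library was library 3. CCNE2 fell from 35.7 ± 7.58 to 11.6 ± 3.85 FPKM (SD, n = 3 each). On the log2 scale the change was -1.55, with a standard error of 0.41 and an adjusted p of 0.00462 (limma, Benjamini-Hochberg adjustment). The CCNE2 call was lost when all libraries were given equal FPKM sums (-0.88) and with the median of ratios (-0.60).

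**Figure D1:**
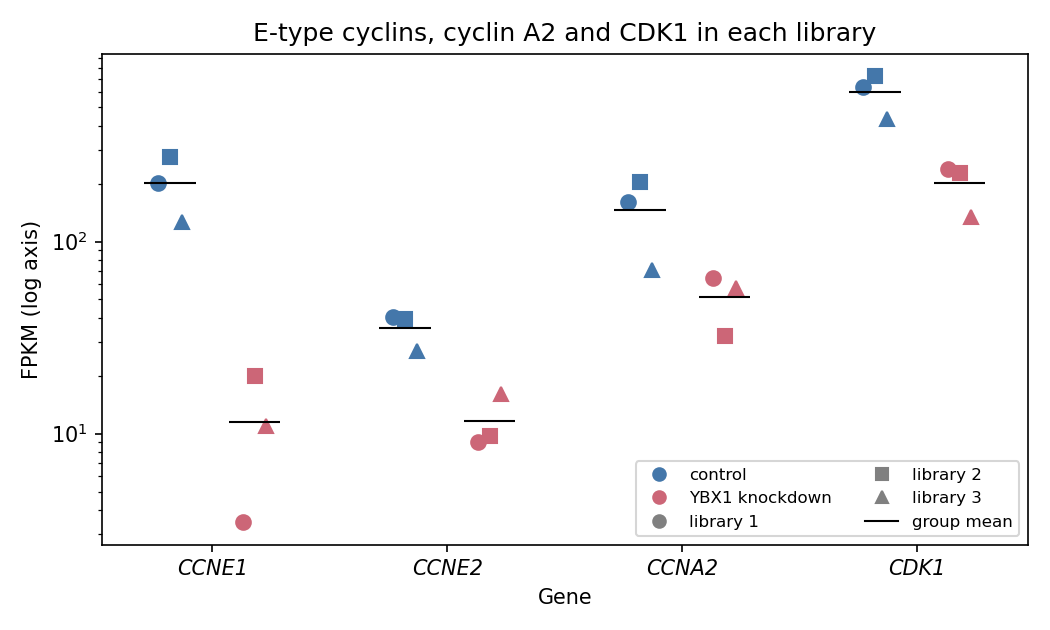
FPKM of CCNE1, CCNE2, CCNA2 and CDK1 on a log axis, with 1 point for each of the 3 controls (blue) and the 3 YBX1 knockdown libraries (red), a shape for each library number, and a line at each group mean. CCNE1 lay between 126 and 275 FPKM in the controls and between 3.46 and 19.98 FPKM after knockdown.

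Set against CCNE2 in the same library, CCNE1 had 4.97, 6.96 and 4.67 times its FPKM in controls 1, 2 and 3. After knockdown CCNE1 had 0.380, 2.05 and 0.683 times the FPKM of CCNE2 in libraries 1, 2 and 3. By FPKM, CCNE1 was above CCNE2 in every control and in knockdown library 2, and below it in knockdown libraries 1 and 3. By fragments it was above CCNE2 in every library, with 151 against 141 in knockdown library 1 and 503 against 261 in knockdown library 3. CCNE1 made up 84.4% ± 2.71 of the summed FPKM of CCNE1 and CCNE2 in the controls and 45.1% ± 20.2 after knockdown (SD, n = 3 each). By fragments, CCNE1 was instead the larger part of the pair in every knockdown library, with 808 against 140 in library 2. The size of such ratios, and in knockdown libraries 1 and 3 their direction, depends on the gene models, which were 3610 bases long for CCNE1 and 1280 for CCNE2. They are a description with no test, since they contain the values that chose CCNE1.

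CCNA2, cyclin A2, binds CDK2 later in S phase and also CDK1. It had 162, 205 and 71.2 FPKM in controls 1, 2 and 3 and 64.4, 32.3 and 57.1 FPKM in knockdown libraries 1, 2 and 3. Control 3 again had the lowest control value, close above knockdown library 1, and the groups did not overlap. The log2 fold change of CCNA2 was -1.42 with a standard error of 0.48 and an adjusted p of 0.0151 (limma, Benjamini-Hochberg adjustment). This call was lost without control 1 (-1.28), without control 2 (-1.11) or without knockdown library 2 (-1.12), and with all 3 scalings between libraries. CKS1B, a small subunit that binds CDKs and helps mark p27 for degradation, went the other way, with 4727, 3800.2 and 8843 FPKM in the controls and 21638, 13014 and 34471 FPKM after knockdown. Every knockdown library was above every control, and control 3, the lowest control for CCNE1, was the highest for CKS1B. CKS1B rose by a log2 fold change of 1.98 with a standard error of 0.52 and an adjusted p of 0.00488 (limma, Benjamini-Hochberg adjustment). Its gene model has 240 bases.

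Of the other cyclins and CDKs, CDK1, CCNT1 and CCNJ were in the table, and all 3 were lower. CDK1, the kinase that drives entry into mitosis, had 639.8, 726 and 438 FPKM in controls 1, 2 and 3 and 240.2, 228 and 135 FPKM in knockdown libraries 1, 2 and 3. The groups did not overlap, and control 3 was again the lowest control. CDK1 fell by 1.59 on the log2 scale with a standard error of 0.42 and an adjusted p of 0.00464 (limma, Benjamini-Hochberg adjustment), but the call was lost with all 3 scalings, at -0.88, -0.59 and -0.81 for equal sum, median of ratios and quantile normalization. Relative to CDK1 in the same library, CCNE1 had 0.315, 0.378 and 0.288 times its FPKM in the controls. After knockdown these ratios were 0.0144, 0.0876 and 0.0815, again a description that contains the values that chose CCNE1. CCNT1, cyclin T1, which pairs with CDK9 in transcription elongation, had a log2 fold change of -1.18 with an adjusted p of 0.0219 (limma, Benjamini-Hochberg adjustment). Its call was lost without control 1 (-0.97), control 2 (-1.13) or knockdown library 3 (-0.87). CCNJ, cyclin J, had 107, 227 and 371 FPKM in the controls and 49.5, 154 and 64.9 FPKM after knockdown, with overlapping groups. Its log2 fold change of -1.38 did not pass without control 2 (-1.32), control 3 (-0.97), knockdown library 1 (-1.05) or knockdown library 3 (-1.24). Neither CCNT1 nor CCNJ passed with any of the 3 scalings. No gene of the list of CDK1 activation and the anaphase-promoting complex was in the table with a symbol.

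Downstream of cyclin E-CDK2, the E2F, RB and DREAM regulators were represented by HDAC2 and LIN54, and 1 of the 2 passed. HDAC2, a histone deacetylase that the retinoblastoma protein recruits to E2F targets, had 97.1, 106 and 23.1 FPKM in controls 1, 2 and 3 and 5.54, 3.99 and 6.83 FPKM in knockdown libraries 1, 2 and 3. Control 3 was far below controls 1 and 2, yet above every knockdown library. HDAC2 fell by 3.32 on the log2 scale with a standard error of 0.56 and an adjusted p of 0.000551 (limma, Benjamini-Hochberg adjustment), the largest decrease among the 31 genes and smaller than the difference of CCNE1. LIN54, a DNA-binding subunit of the DREAM complex, had a log2 fold change of -0.89, or 0.036 with the median of ratios, and did not pass the limit of 1. Among genes of histone supply, NPAT, a substrate of cyclin E-CDK2, had 38.4, 46.3 and 23.6 FPKM in the controls and 20.1, 22.5 and 15.1 FPKM after knockdown. The groups of NPAT did not overlap, but its log2 fold change of -0.84 did not pass, with an adjusted p of 0.0656 (limma, Benjamini-Hochberg adjustment). Like every gene of the table, LIN54 and NPAT had been called by the authors, so they are not shown to be unchanged. Without control 3 it was -1.11 and passed, while with equal FPKM sums it was -0.15 and with the median of ratios 0.12, and it did not pass. HAT1, which acetylates newly made histone H4, fell by 2.44 on the log2 scale with an adjusted p of 0.00108 (limma, Benjamini-Hochberg adjustment). ASF1A, a chaperone that delivers histones to replicating DNA, had 98.8, 28.7 and 98.3 FPKM in the controls and 289, 96.1 and 649 FPKM after knockdown. Its groups overlapped, and its rise of 1.99 on the log2 scale did not pass without control 2 (1.41) or knockdown library 3 (1.34).

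**Figure D2:**
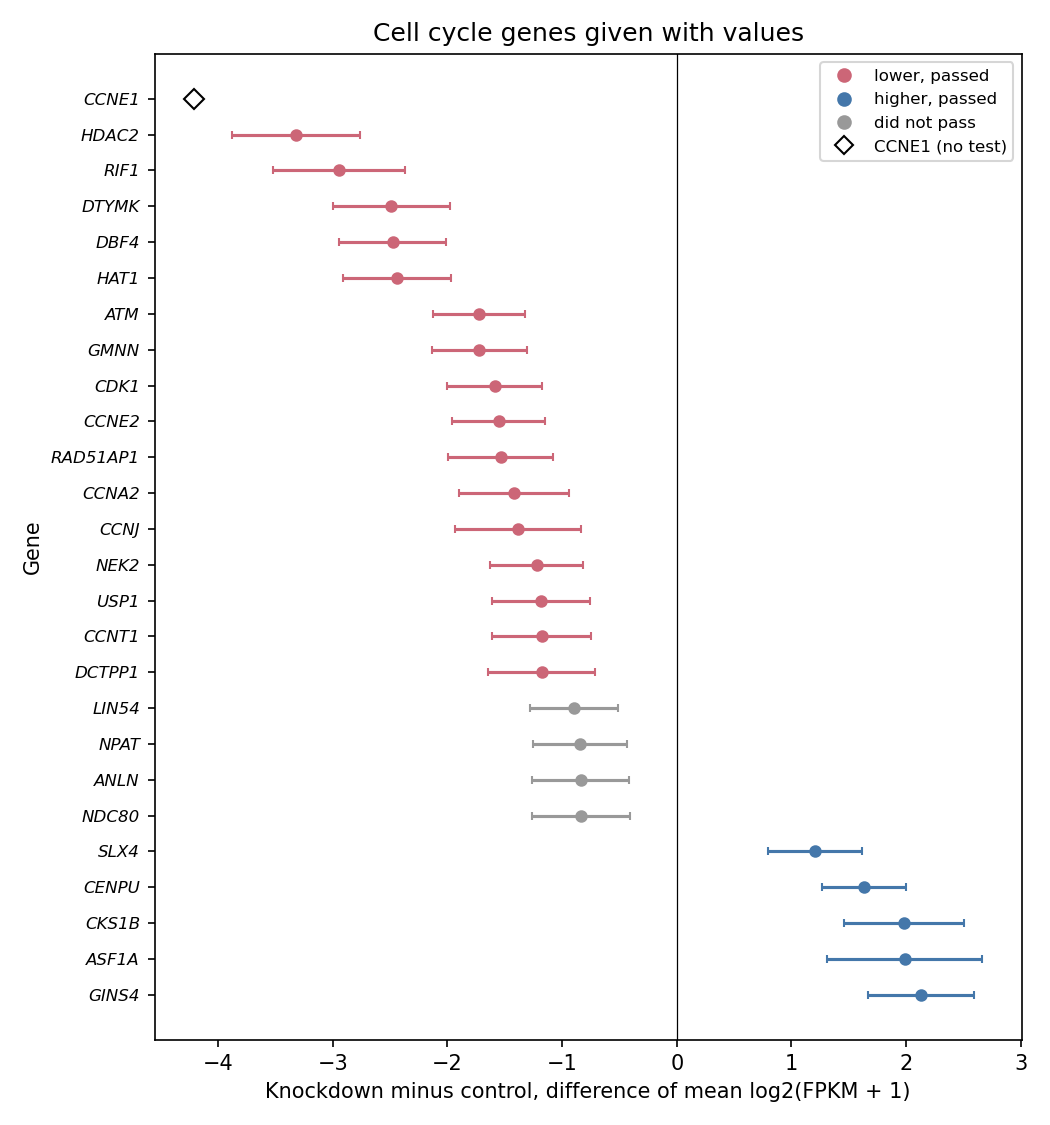
Log2 fold changes on the log2(FPKM + 1) scale, YBX1 knockdown minus control, of the 26 cell cycle genes chosen to be given with values, CCNE1 included. Points are differences of the means of 3 libraries each, bars are the standard errors from limma, colours give the calls (lower, higher or not passed), and CCNE1, at -4.21, is drawn without an error bar because no test is given for a gene chosen on these values.

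Origin licensing and origin firing, which share a list, were represented by GMNN, DBF4, RIF1 and GINS4, of which 3 fell and 1 rose. GMNN, or geminin, which blocks the licensing factor CDT1, was abundant at 2508, 2279 and 2535 FPKM in controls 1, 2 and 3 and had 507, 954 and 832 FPKM in knockdown libraries 1, 2 and 3. Unlike CCNE1, it had almost the same level in the 3 controls. GMNN fell by 1.72 on the log2 scale with a standard error of 0.41 and an adjusted p of 0.00312 (limma, Benjamini-Hochberg adjustment), a call that was lost with the median of ratios (-0.72) and with quantile normalization (-0.78). DBF4, the activating subunit of the CDC7 kinase that fires origins, had 70.7, 82.9 and 28.1 FPKM in the controls and 10.6, 8.40 and 8.24 FPKM after knockdown. Its knockdown libraries lay close together, far less spread than those of CCNE1. DBF4 fell by 2.48 on the log2 scale with a standard error of 0.46 and an adjusted p of 0.000914 (limma, Benjamini-Hochberg adjustment). RIF1, which sets the timing of origin firing, had 42.8, 55.9 and 9.96 FPKM in the controls and 3.50, 3.35 and 2.05 FPKM after knockdown, again with control 3 the lowest control. RIF1 fell by 2.95 on the log2 scale with a standard error of 0.58 and an adjusted p of 0.00118 (limma, Benjamini-Hochberg adjustment). GINS4, part of the replicative helicase, had 22.7, 10.2 and 32.9 FPKM in the controls and 78.4, 105 and 88.9 FPKM after knockdown. Its groups did not overlap, and it rose by 2.13 on the log2 scale with a standard error of 0.46 and an adjusted p of 0.00190 (limma, Benjamini-Hochberg adjustment).

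The list of the replication fork and nucleotide supply had DTYMK and DCTPP1 in the table, and both fell. DTYMK, the thymidylate kinase that makes a precursor of dTTP, had 100.05, 97.5 and 143 FPKM in controls 1, 2 and 3 and 10.6, 14.5 and 44.03 FPKM in knockdown libraries 1, 2 and 3. Here control 3 was the highest control, the reverse of CCNE1. DTYMK fell by 2.49 on the log2 scale with a standard error of 0.51 and an adjusted p of 0.00148 (limma, Benjamini-Hochberg adjustment). DCTPP1, which hydrolyses dCTP, had a log2 fold change of -1.18 with an adjusted p of 0.0307 (limma, Benjamini-Hochberg adjustment). This call was lost without control 1 (-1.26), control 3 (-0.70) or any 1 of the knockdown libraries (-1.10, -1.22 and -1.21 without libraries 1, 2 and 3), and with all 3 scalings.

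In the S-phase checkpoint and repair list, ATM, RAD51AP1 and USP1 fell and SLX4 rose. ATM, the kinase that signals broken DNA, had 21.8, 27.8 and 14.6 FPKM in controls 1, 2 and 3 and 5.01, 5.23 and 6.57 FPKM in knockdown libraries 1, 2 and 3. The order of the controls was that of CCNE1, and the knockdown libraries were close together. ATM fell by 1.72 on the log2 scale with a standard error of 0.40 and an adjusted p of 0.00280 (limma, Benjamini-Hochberg adjustment), a call that was lost with the median of ratios (-0.81). RAD51AP1 and USP1, the latter of which removes ubiquitin from PCNA, had log2 fold changes of -1.53 and -1.18. RAD51AP1 did not pass with equal sums (-0.84) or the median of ratios (-0.56). USP1 did not pass with any of the 3 scalings, nor without control 1 (-1.02), control 2 (-1.02), knockdown library 2 (-1.12) or knockdown library 3 (-1.01). SLX4, a scaffold for DNA nucleases, was low, at 1.01, 0.384 and 1.84 FPKM in the controls and 3.85, 5.09 and 2.27 FPKM after knockdown. Its rise of 1.20 on the log2 scale, a scale that understates the change of low genes, did not pass without control 2 (0.94) or knockdown library 2 (1.0).

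Chromosome segregation and cytokinesis, the later events of the cycle, had 10 genes in the table, of which 3 fell, 3 rose and 4 did not pass. Of all genes tested, 56.2% were called lower and 34.1% higher. NEK2, a centrosome kinase, had 259, 125 and 149 FPKM in controls 1, 2 and 3 and 61.4, 79.9 and 75.9 FPKM in knockdown libraries 1, 2 and 3. The groups did not overlap, and its log2 fold change was -1.22 with an adjusted p of 0.0144 (limma, Benjamini-Hochberg adjustment). It did not pass without control 1 (-0.92) or knockdown library 1 (-1.11), nor with any of the 3 scalings. CENPU, a protein of the inner kinetochore, had 62.7, 65.9 and 61.0 FPKM in the controls and 239, 188 and 173 FPKM after knockdown. In contrast to CCNE1, its controls were nearly equal. CENPU rose by 1.63 on the log2 scale with a standard error of 0.37 and an adjusted p of 0.00236 (limma, Benjamini-Hochberg adjustment). NDC80, which links kinetochores to microtubules, and ANLN, which shapes the cleavage furrow, had log2 fold changes of -0.83 and -0.84, overlapping groups, and did not pass. Without control 3 they were -1.22 and -1.14 and passed, while with the median of ratios they were 0.16 and 0.15 and did not pass. Other members, named after their values were seen because the counts are small, were CENPE and ESCO1, which fell, NCAPD3 and ASPM, which rose, and SGO2, which did not pass. Neither CENPE nor ESCO1 passed with any of the 3 scalings, and ESCO1 did not pass without control 1 (-1.02) or control 2 (-1.17).

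Over the cell cycle genes, the number lower after knockdown depended on the scaling between libraries. It was 18 as deposited, and 7, 5 and 8 with equal FPKM sums, the median of ratios and quantile normalization, while the number higher was 7 in all 4 cases. Of all genes tested, 56.2% were called lower as deposited, and 38.1%, 31.5% and 31.9% with these scalings. Genes called higher numbered 1534 of the 4500 tested as deposited (34.1%) and 1549 with each of these scalings. As deposited, 1549 genes had a positive log2 fold change. In the whole table, lower genes made up 62.3% of the changed genes as deposited, and 52.5%, 47.8% and 48.1% after the scalings, which moved the median log2 fold change by 0.56, 0.80 and 0.72. HDAC2, HAT1, DBF4, RIF1 and DTYMK were lower in every scaling and without each library in turn. CKS1B, GINS4, CENPU, NCAPD3 and ASPM were higher in all of these fits. All 3 scalings moved the median upward, which favours the calls of higher genes. That these calls were kept with the scalings is therefore no sign of robustness. Each scaling could be computed only from genes that had been called by the authors, most of them lower. A call lost with a scaling therefore does not show that the gene was unchanged. The table held 51.0%, 56.9% and 48.6% of the fragments of controls 1, 2 and 3 and 35.4%, 36.9% and 38.8% of those of knockdown libraries 1, 2 and 3.

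Control 3, the lowest control for CCNE1, was also the lowest control in 13 of the 18 cell cycle genes that fell (72.2%) and in 55.1% of the 2530 genes of the table called lower. Knockdown library 1, the lowest of its group for CCNE1, was the lowest knockdown library in 8 of the 18 (44.4%) and the highest in 7 (38.9%), and it was the lowest in 57.8% and the highest in 20.3% of those 2530 genes. Markers of other cells were read in the same libraries. Of 21 markers of cumulus and granulosa cells, which can adhere to embryos, 1 was in the table with a symbol. This was TNFAIP6, a matrix protein of expanding cumulus, at 1.73, 2.38 and 20.5 FPKM in controls 1, 2 and 3 and 2.14, 2.37 and 2.202 FPKM in knockdown libraries 1, 2 and 3. Control 3 stood apart from the other 5 libraries. Without control 3, the CCNE1 difference was -4.51, and 20 of the 31 cell cycle genes were lower, where 57.1% of all genes tested were.

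Of 35 markers of oocytes and early embryos, H1-8, PATL2 and TENT2 were in the table with a symbol. H1-8, the oocyte linker histone, had 252, 194 and 680.5 FPKM in controls 1, 2 and 3 and 963, 1393 and 859 FPKM in knockdown libraries 1, 2 and 3. PATL2, an oocyte RNA-binding protein, had 2.93, 2.78 and 4.19 FPKM in the controls and 26.0, 26.1 and 23.8 FPKM after knockdown. TENT2, a poly(A) polymerase of the cytoplasm, had 261, 285 and 126 FPKM in the controls and 45.4, 42.7 and 55.9 FPKM after knockdown. All 3 were detected in every library, and the order of the controls was the same for TENT2 as for CCNE1 and the reverse for H1-8. H1-8 was the most abundant of the 3 in each knockdown library and in control 3, and TENT2 in controls 1 and 2. The sum of the 3 was 516, 482 and 810.2 FPKM in the controls and 1035, 1462 and 939 FPKM after knockdown. H1-8 and PATL2 were higher in each knockdown library than in any control, as were 33.8% of the genes tested. TENT2 was lower in each knockdown library than in any control, as were 57.8% of the genes tested. The part of such differences between libraries in the CCNE1 result was not tested.

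In the goat RefSeq annotation of assembly ARS1.2, C18H19orf12 and URI1 are the protein-coding neighbours of CCNE1 on either side. Neither neighbour was analysed here. The authors aligned reads to another version of the assembly, so no coordinates are given.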

How the data were processed

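RNA-seq of 6 pooled samples of goat 8-cell embryos, 3 controls and 3 YBX1 knockdown, was analysed from the deposited table, with groups and replicate numbers from the library titles. The authors made Smart-seq2 libraries, used fastp for trimming, HISAT2 for alignment to the goat assembly ARS1 and featureCounts for counting unique alignments. The authors deposited FPKM values per gene and library. The deposited columns of log2 fold changes, p-values and their adjusted values hold the authors' DESeq2 comparison and were read only to learn which genes the table holds: in all 5154 the adjusted p was under 0.05 and the log2 fold change beyond 1 or -1. The design had assumed a table of all genes.

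Whole fragments and library totals were recovered from the steps between FPKM values and used for depth, floors and intervals. Genes whose mean FPKM was 1 or more were fitted on log2(FPKM + 1) with limma 3.58.1 in R 4.3.3 (lmFit, eBayes with trend, no block), with Benjamini-Hochberg adjustment over 4500 genes, and called lower or higher where the adjusted p was below 0.05 and the log2 fold change passed -1 or 1. The remaining steps used pandas 2.3.3, numpy 2.4.6 and scipy 1.17.1, with matplotlib 3.10.9 for figures.

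Symbols came from the part in hand of the skipped exon events that the study lists as differential between the same groups, which pairs 1130 identifiers with a symbol. The genes with a symbol were therefore also selected by splicing in this contrast. CCNE1 and the lists were chosen with earlier results of these data known. Values are given for every gene of the cyclin E-CDK2 module and for the 4 with the highest mean FPKM of each other list, for the genes at places 1 to 6 of the decreases, and for the 5 nearest profiles. Single values of NCAPD3 and ESCO1, which this choice left out, are also given. Alternatives were a pseudocount of 0.1, no filter or a mean FPKM of at least 5, 3 scalings (equal FPKM sum, median of ratios, quantile), each library left out, eBayes without trend, a block for the replicate number, and 1 minus Pearson's correlation for likeness. A gene of the cell cycle lists was counted but is not reported here. Splicing of CCNE1, and genes that the authors did not call, were not analysed here.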

Additional observations from a re-analysis of the deposited data

How the results depend on the processing

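The CCNE1 difference ranged from -4.72 to -3.60 with each library left out in turn. It was -4.37 with a pseudocount of 0.1, -3.54 with equal FPKM sums, -3.26 with the median of ratios and -3.60 with quantile normalization. The number of lower cell cycle genes was 7 with equal FPKM sums, 5 with the median of ratios and 8 with quantile normalization, against 18 as deposited, and lower genes of the table numbered 1416 with the median of ratios and 1434 with quantile normalization, against 2530. The median of ratios also turned 4 genes that had not passed to the other direction, LIN54 (0.036), NPAT (0.12), NDC80 (0.16) and ANLN (0.15), none of which passed. The cause of these shifts was not tested. With each library left out in turn, 12 to 20 cell cycle genes were lower and 5 to 7 higher, while lower genes of the table numbered 2245 to 2570 and higher genes 1425 to 1526. The filters, the pseudocount of 0.1 and eBayes without trend kept every count within 1.5 times that reported.

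Controls and knockdown libraries with the same number deviated from their group means with correlations across genes of 0.095, 0.14 and 0.16. For different numbers the correlations ran from -0.14 to 0.027, so every library correlated best with its own number. The study's methods give no pairing, so the main fit had no block, and whether the numbers mark a pairing was not tested. With the number as a replicate block, 18 cell cycle genes were lower and 7 higher, the CCNE1 difference was -4.21, and 2542 genes of the table were lower and 1535 higher. NPAT and ANLN then had adjusted p-values of 0.0495 and 0.0482 (limma, Benjamini-Hochberg adjustment), but did not pass the fold change limit of 1.

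Depth did not limit CCNE1, which had at least 151 fragments in each library.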
